A study of Mus musculus with 4 samples.

Results

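The fibrillar collagens are the collagens whose chains wind into a long, nearly unbroken triple helix and pack side by side into the banded fibrils of connective tissue. They were studied here as 9 genes, *Col1a1*, *Col1a2*, *Col3a1*, *Col5a1*, *Col5a2*, *Col5a3*, *Col11a1*, *Col24a1* and *Col27a1*, taken by gene symbol from the deposited table. All 9 had a log2 value in each of the 4 libraries, and they were compared as part of the 14415 genes of which that was true. The study asked how periosteal cells that carry a PDGFRα reporter differ from their neighbors without it. Both populations came from male PDGFRα-mTmG mice of 9 to 10 weeks, which were dosed with tamoxifen for 5 days (150 mg/kg each day) and were used 14 days after the last dose. In these animals CreER is driven by the *Pdgfra* promoter and turns membrane tdTomato into membrane GFP, so that PDGFRα reporter+ cells were sorted as GFP+ and PDGFRα reporter- cells as tdTomato+. The allele, the tamoxifen, the culture and the sort against CD31, CD45 and Ter119 were shared by both populations. Cells digested from the surface of femurs and tibias grew for 1 passage in 15% FBS with bFGF at 10 ng/mL, and the labels give 3 to 6 pooled mice for each population of cells, a range that differs from the one in the study's methods. A library therefore has no single animal behind it, and the reporter records *Pdgfra* promoter activity at the time of tamoxifen rather than at the sort.

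Each chain of a fibrillar collagen is a ribbon of glycine-X-Y triplets, in which the small glycine fits the crowded core of the helix and X and Y are often proline and hydroxyproline. Collagens I and III form the bulk of the fibril in periosteum, tendon and skin, collagens V and XI are built into the fibril and limit its width, and collagens XXIV and XXVII are smaller branches of the family known from developing bone and cartilage. In the periosteum the outer layer is fibrous and rich in such fibrils, whereas the inner layer holds cells that can turn to bone or cartilage. The remaining chains of the family, *Col2a1* and *Col11a2*, belong mainly to cartilage and are given for comparison.

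The repeat is written directly into the exons. In GENCODE M21 on GRCm38, the build named in the submitters' processing notes, 250 of the 511 internal coding exons of the 9 genes (48.9%) are exactly 54 bases long, which is 6 glycine-X-Y triplets. Among the internal coding exons of all protein-coding genes, 1166 of 158741 (0.735%) have that length. One such exon is shown for each of 5 members, to let the shared pattern and the variable X and Y positions be seen; capitals mark the first codon of each triplet, which is a glycine codon, and every sequence is read 5′ to 3′ on the coding strand.
Col1a1, chr11:94939904-94939957 (+): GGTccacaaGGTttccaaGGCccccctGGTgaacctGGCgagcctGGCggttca
Col1a2, chr6:4515481-4515534 (+): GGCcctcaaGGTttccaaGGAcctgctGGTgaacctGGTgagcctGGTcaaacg
Col3a1, chr1:45325360-45325413 (+): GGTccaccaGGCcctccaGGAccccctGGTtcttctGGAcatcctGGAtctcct
Col5a1, chr2:27965251-27965304 (+): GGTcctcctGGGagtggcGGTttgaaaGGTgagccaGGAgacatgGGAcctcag
Col27a1, chr4:63231792-63231845 (+): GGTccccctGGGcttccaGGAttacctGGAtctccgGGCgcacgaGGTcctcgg

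The length of the unbroken repeat separates *Col24a1* and *Col27a1* from the other members. In 7 members the longest run without a missed glycine codon was 337 to 344 triplets, in *Col5a3* and *Col3a1* at the ends of that range. It was 216 triplets in *Col24a1* and 217 in *Col27a1*, and in both a short gap led into a further run of 93 triplets. The gaps are printed with 6 triplets on each side, since they mark these chains off from the other members; capitals again mark the glycine codon that opens each triplet. The gap is 4 codons long in *Col24a1*, starting at codon 1216 from the start codon, and 1 codon long in *Col27a1*, at codon 1324.
Col24a1: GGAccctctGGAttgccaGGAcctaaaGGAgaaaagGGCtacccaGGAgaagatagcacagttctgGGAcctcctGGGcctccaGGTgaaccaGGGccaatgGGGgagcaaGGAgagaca
Col27a1: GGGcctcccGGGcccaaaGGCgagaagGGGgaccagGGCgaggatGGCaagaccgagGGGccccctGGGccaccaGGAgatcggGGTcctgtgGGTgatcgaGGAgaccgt

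On the map, the members are spread over 7 chromosomes, and 2 of these hold a pair. *Col3a1* (chromosome 1, 45311538 to 45349706) and *Col5a2* (chromosome 1, 45374321 to 45503282) are transcribed toward each other with 24614 bases between them. *Col11a1* (chromosome 3, 114030540 to 114220718) and *Col24a1* (chromosome 3, 145292472 to 145552011) share a chromosome at a distance. The others are *Col1a1* (chromosome 11, 94936224 to 94953042), *Col1a2* (chromosome 6, 4504814 to 4541544), *Col5a1* (chromosome 2, 27886425 to 28039514), *Col5a3* (chromosome 9, 20770050 to 20815067) and *Col27a1* (chromosome 4, 63214004 to 63334991). Of the 9 annotated genes that overlap a member, none had a value in any library, so that no value of a member stood beside one of an overlapping gene.

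The values were log2 values that the authors had quantile normalized, with 1 value per gene symbol and library. They ran from −10.07 to 11.73 with a median of 1.48 in every library, so that a level says where a gene stood within its library. The lowest values fell with transcript length, the median of the 20 lowest lying between −7.42 and −7.33 among the 20% of genes with the shortest transcripts and between −9.07 and −8.88 among the 20% with the longest. Levels of different genes are nevertheless compared only as deposited values, since the scaling for length is not given in the sources used here. The table numbers the libraries of each population 2 and 3, whereas the labels number replicates 1 and 2, and libraries are named here by population and table number. Depth is not known from log values, so that no counting error can be given, and nothing says that the 2 libraries of a population came from separate animals or cultures. P-values then measure only the spread between these libraries. Each was two-sided and came from limma, adjusted after Benjamini and Hochberg for the 14415 genes tested together, and 0.333 is the smallest p that an exact permutation test of 2 against 2 libraries could give.

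No fibrillar collagen differed between the populations beyond the spread of the libraries. With limma, an adjusted p under 0.05 was found for 0 of the 9 members and for 0 of the 14415 genes (0.0%). At an unadjusted p under 0.05 there were 0 members and 131 genes (0.909%), and the smallest unadjusted limma p of a member was 0.300 (*Col27a1*). The log2 difference, PDGFRα reporter+ minus PDGFRα reporter-, had a median of −0.06 over the members and of −0.0035 over all genes, with a median size of 0.15 and 0.12. The largest in size was 0.45, and 4 members lay above 0 and 5 below. Leaving out any 1 library turned the median over the members positive, to between 0.02 and 0.15. In none of the 9 did both PDGFRα reporter+ libraries lie on one side of both PDGFRα reporter- libraries, which they did above for 1094 genes (7.59%) and below for 1167 genes (8.10%). In bulk RNA, a difference in the number of cells of a type and a difference in RNA per cell cannot be told apart.

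**Figure D1:**
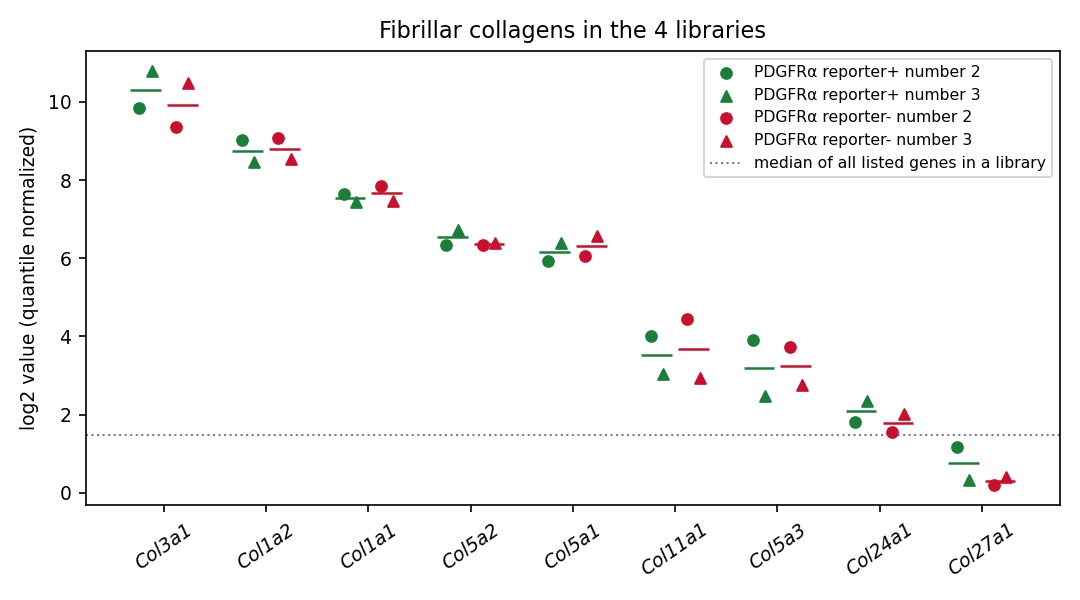
Log2 values of the 9 fibrillar collagens (y axis, quantile normalized by the authors) in each of the 4 libraries, ordered by their mean; green marks PDGFRα reporter+, red PDGFRα reporter-, circles number 2 and triangles number 3, short lines the mean of each population. *Col3a1* stands highest and *Col27a1* lowest, the populations overlap for every gene, and all but *Col27a1* lie above the median of all listed genes (dotted line).

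The order of the levels was close to the same in all libraries, with the chains of collagens III and I at the top and those of XXIV and XXVII at the bottom. By the mean of the 4 libraries it ran *Col3a1* (10.12), *Col1a2* (8.77), *Col1a1* (7.60), *Col5a2* (6.45), *Col5a1* (6.24), *Col11a1* (3.60), *Col5a3* (3.21), *Col24a1* (1.93) and *Col27a1* (0.52). *Col5a2* and *Col5a1* could not be separated, with a mean gap of 0.21 against an SD of 0.29 over the libraries of *Col5a1*, and their order held in 3 of 4 libraries. For *Col11a1* and *Col5a3* the gap of 0.39 was also smaller than the SD of either gene (0.74 and 0.71), although the order held in 4 of 4 libraries. Every other neighbor in the order was lower in 4 of 4 libraries by a mean gap larger than the SD of both genes. The smallest such gap in any library was 0.11, between *Col5a3* and *Col24a1* in PDGFRα reporter+ library 3.

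*Col1a1* and *Col1a2* encode the chains of collagen I, the main protein of bone matrix and of the fibrous periosteum. *Col1a1* had log2 values of 7.64 and 7.44 in PDGFRα reporter+ libraries 2 and 3 and of 7.85 and 7.48 in PDGFRα reporter- libraries 2 and 3. The libraries numbered 2 were the higher ones in both populations, and the populations overlapped. The log2 difference was −0.12 (SE 0.23, 95% interval −0.74 to 0.50, limma adjusted p = 1.0), made up of −0.21 within number 2 and −0.03 within number 3. *Col1a2* had values of 9.02 and 8.47 in PDGFRα reporter+ and 9.07 and 8.53 in PDGFRα reporter- libraries. Again number 2 was higher in both, and the difference of −0.06 (SE 0.35, 95% interval −0.99 to 0.88, limma adjusted p = 1.0) was small beside the gaps of −0.55 and −0.54 between numbers 3 and 2. Both genes were thus slightly lower in PDGFRα reporter+ cells within each number. *Col1a1* ranked from 114th to 151st and *Col1a2* from 21st to 64th among the genes listed in a library.

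*Col3a1*, the single chain of collagen III, which accompanies collagen I in soft and healing tissue, was among the most abundant transcripts. It ranked 9th and 4th in PDGFRα reporter+ libraries 2 and 3 and 14th and 5th in the PDGFRα reporter- libraries. Its values were 9.85 and 10.78 in PDGFRα reporter+ and 9.37 and 10.49 in PDGFRα reporter- libraries. Here the libraries numbered 3 were the higher ones, the reverse of collagen I, and PDGFRα reporter- library 3 lay above PDGFRα reporter+ library 2. The log2 difference of 0.39 (a ratio of 1.31, SE 0.60, 95% interval −1.20 to 1.98, limma adjusted p = 1.0) was positive within number 2 (0.48) and within number 3 (0.29). Its sign turned when PDGFRα reporter+ library 3 (−0.08) or PDGFRα reporter- library 2 (−0.17) was left out, which leaves the numbers unequal between the populations.

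*Col5a1*, *Col5a2* and *Col5a3* encode the chains of collagen V, which nucleates fibrils of collagen I and restrains their width. *Col5a1* had log2 values of 5.94 and 6.40 in PDGFRα reporter+ and 6.05 and 6.56 in PDGFRα reporter- libraries, number 3 being higher in both. The log2 difference was −0.14 (SE 0.27, 95% interval −0.86 to 0.59, limma adjusted p = 1.0), with −0.11 within number 2 and −0.16 within number 3. *Col5a2* had 6.34 and 6.73 in PDGFRα reporter+ and 6.34 and 6.39 in PDGFRα reporter- libraries. Of its 4 values, 3 thus lay together, and PDGFRα reporter+ library 3 stood above them. Its difference of 0.17 (SE 0.20, 95% interval −0.36 to 0.71, limma adjusted p = 1.0) came from number 3 (0.34), since it was −0.0008 within number 2.

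The third chain of collagen V was lower and varied more. *Col5a3*, known mainly from muscle, fat and connective tissue sheaths, had log2 values of 3.90 and 2.47 in PDGFRα reporter+ and 3.72 and 2.76 in PDGFRα reporter- libraries. Both libraries numbered 3 were lower, by 1.43 and 0.97, and the difference between the populations was 0.18 within number 2 and −0.29 within number 3. Over both it was −0.06 (SE 0.59, 95% interval −1.64 to 1.53, limma adjusted p = 1.0). *Col11a1*, a chain of collagen XI that can also join collagen V outside cartilage, followed the same course, with 4.01 and 3.04 in PDGFRα reporter+ and 4.43 and 2.92 in PDGFRα reporter- libraries. Its libraries numbered 3 were lower by 0.96 and 1.51. The difference between the populations was −0.15 (SE 0.61, 95% interval −1.79 to 1.48, limma adjusted p = 1.0), −0.42 within number 2 and 0.12 within number 3. The order of the populations was therefore opposite in the numbers for both genes, and a change of as much as a log2 unit in either direction lies within their intervals.

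*Col24a1* and *Col27a1*, the chains with the shorter unbroken repeat shown above, had the lowest values. *Col24a1*, described in bone-forming cells, had log2 values of 1.80 and 2.36 in PDGFRα reporter+ and 1.56 and 2.00 in PDGFRα reporter- libraries. PDGFRα reporter+ was higher within number 2 (0.24) and within number 3 (0.36), and PDGFRα reporter- library 3 lay above PDGFRα reporter+ library 2. The log2 difference was 0.30 (SE 0.30, 95% interval −0.49 to 1.09, limma adjusted p = 1.0). *Col27a1*, described in growing cartilage, had 1.18 and 0.32 in PDGFRα reporter+ and 0.20 and 0.39 in PDGFRα reporter- libraries. PDGFRα reporter+ library 2 stood apart from the other 3, whose values were within 0.19 of each other. The difference of 0.45 (SE 0.39, 95% interval −0.57 to 1.48, limma adjusted p = 1.0) was 0.98 within number 2 and −0.07 within number 3. In *Col27a1*, which ranked from 8377th to 9928th, the largest difference among the 9 members thus rested on 1 library, without which it was 0.02. It was 0.28 with a pseudocount of 1.

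**Figure D2:**
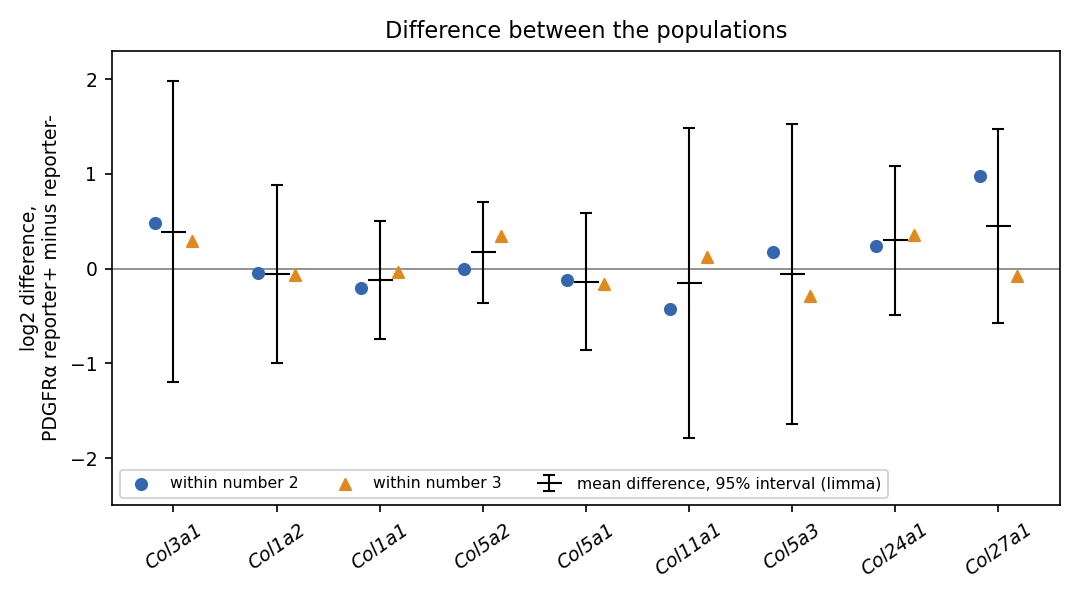
Log2 difference between the populations (y axis, PDGFRα reporter+ minus PDGFRα reporter-) for each fibrillar collagen, with the mean difference and its 95% interval from limma in black and the differences within number 2 (circles) and number 3 (triangles). Every interval includes 0, *Col3a1* and *Col24a1* lie above 0 within both numbers, and *Col1a1*, *Col1a2* and *Col5a1* lie below it within both.

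Within both numbers, 2 of the 9 members were higher in PDGFRα reporter+ cells (*Col3a1* and *Col24a1*), as were 3182 of the 14415 genes (22.1%). Lower within both were 3 members (*Col1a1*, *Col1a2* and *Col5a1*) and 3571 genes (24.8%). For 9 genes, both counts are within 1 of what the shares of all genes would give. For the other 4 members, *Col5a2*, *Col5a3*, *Col11a1* and *Col27a1*, the direction differed between the numbers.

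The libraries numbered 2 and 3 differed more than the populations did. The median size of the difference between number 3 and number 2 over the members was 0.56 for the PDGFRα reporter+ libraries and 0.51 for the PDGFRα reporter- libraries, against 0.35 and 0.34 over all genes. It had the same sign in both populations for 8 of 9 members (88.9%) and for 10644 of all genes (73.8%), *Col27a1* being the exception. For 7 members, both of these differences were larger in size than the difference between the populations, as for 9280 of all genes. Libraries numbered 3 had higher *Col3a1* (by 0.93 and 1.12), *Col5a1* (0.46 and 0.51), *Col24a1* (0.56 and 0.44) and *Col5a2* (0.39 and 0.05) in PDGFRα reporter+ and PDGFRα reporter- cells. They had lower *Col1a1* (−0.20 and −0.37), *Col1a2* (−0.55 and −0.54), *Col5a3* (−1.43 and −0.97) and *Col11a1* (−0.96 and −1.51). What the numbers stand for is not given by the labels. Each of these values sets 1 library against 1, and the difference between the numbers was not tested.

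**Figure D3:**
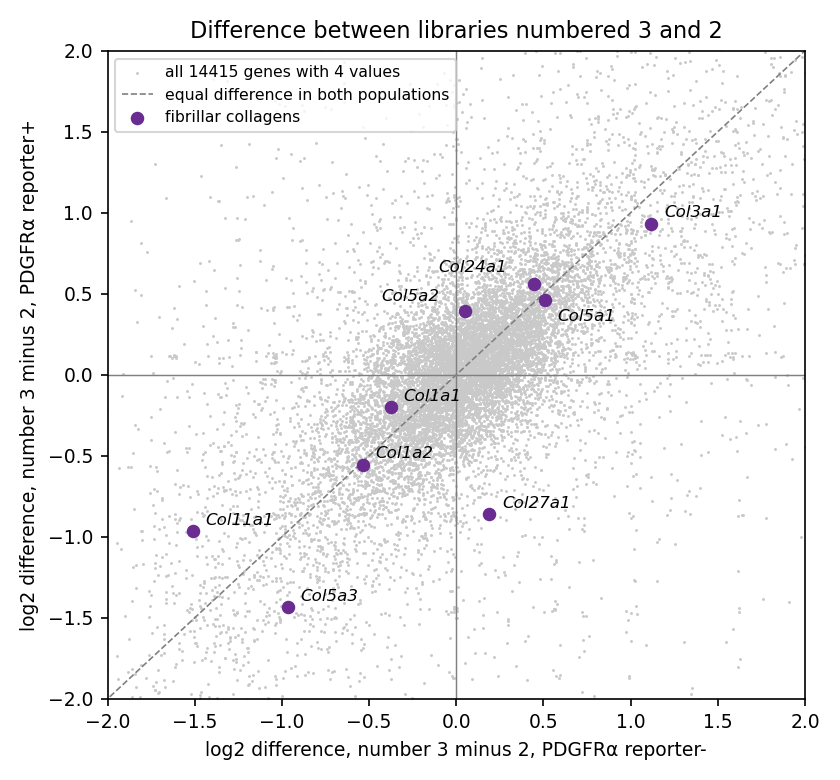
Log2 difference between the libraries numbered 3 and 2 in PDGFRα reporter- (x axis) and PDGFRα reporter+ cells (y axis), for the fibrillar collagens (purple) and for all genes with 4 values (grey, of which 1162 lie outside the plotted range of 2 log2 units either way). *Col3a1*, *Col5a1*, *Col24a1* and *Col5a2* are in the upper right, *Col1a1*, *Col1a2*, *Col5a3* and *Col11a1* in the lower left, and *Col27a1* has opposite signs.

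Ratios of chains within a library show the make-up of the fibril mRNAs apart from a shift of the whole library, and the length of each gene cancels when libraries are compared. The log2 ratio of *Col1a1* to *Col1a2*, the chains that join in collagen I, was −1.38 and −1.02 in PDGFRα reporter+ and −1.22 and −1.05 in PDGFRα reporter- libraries 2 and 3. It was thus steady to within 0.35 across the 4 libraries, and the populations differed by −0.06 in the mean (−0.24 to 0.11 with 1 library left out). The ratio of *Col5a1* to *Col1a1*, which sets collagen V against collagen I, was −1.70 and −1.04 in PDGFRα reporter+ and −1.80 and −0.91 in PDGFRα reporter- libraries, a mean difference of −0.02 beside 0.66 and 0.88 between the numbers. That mean difference ran from −0.46 to 0.42 with 1 library left out.

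Collagen III against collagen I was the ratio with the largest mean difference between the populations. The log2 ratio of *Col3a1* to *Col1a1* was 2.21 and 3.34 in PDGFRα reporter+ and 1.52 and 3.01 in PDGFRα reporter- libraries. It was higher in PDGFRα reporter+ cells within number 2 (0.69) and within number 3 (0.33), by 0.51 in the mean, whereas number 3 exceeded number 2 by 1.13 and 1.49. PDGFRα reporter- library 3 lay above PDGFRα reporter+ library 2, so that the populations overlapped. With PDGFRα reporter- library 2 left out the mean difference was −0.24, with PDGFRα reporter+ library 3 left out −0.057, with PDGFRα reporter- library 3 left out 1.25 and with PDGFRα reporter+ library 2 left out 1.07.

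The ratio of *Col5a1* to *Col5a2*, which combine in the common form of collagen V, was −0.40 and −0.33 in PDGFRα reporter+ and −0.29 and 0.17 in PDGFRα reporter- libraries. It was the one ratio of the 5 in which the populations did not overlap, PDGFRα reporter+ libraries lying below PDGFRα reporter- libraries by 0.31 in the mean (−0.11 within number 2 and −0.50 within number 3). The SD over the 2 libraries was 0.05 for PDGFRα reporter+ and 0.32 for PDGFRα reporter- cells. Leaving out 1 library gave differences from −0.54 to −0.08, the latter without PDGFRα reporter- library 3. *Col11a1* against *Col5a1*, a measure of collagen XI chains beside those of collagen V, was −1.93 and −3.35 in PDGFRα reporter+ and −1.62 and −3.64 in PDGFRα reporter- libraries. Between the populations the mean difference was −0.01, and it ran from −1.02 to 1.00 with 1 library left out. Between the numbers the difference was −1.43 and −2.02, the widest gap of the 5 ratios.

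**Figure D4:**
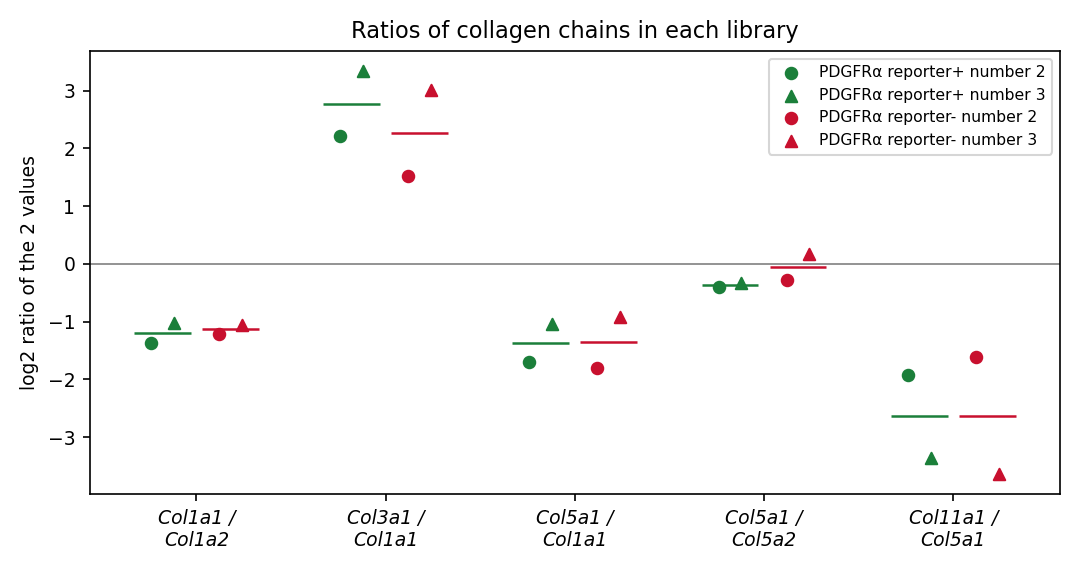
Log2 ratio of pairs of collagen chains (y axis, difference of the log2 values) in each library, with green for PDGFRα reporter+, red for PDGFRα reporter-, circles for number 2, triangles for number 3 and short lines for population means. The ratio of *Col1a1* to *Col1a2* spans 0.35 over the 4 libraries, and all ratios but *Col5a1* to *Col5a2* separate by number, most widely *Col11a1* to *Col5a1*.

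Of the cartilage chains of the family, *Col2a1* lay above the library median of 1.48 in both libraries numbered 2 and below it in both numbered 3, whereas *Col11a2* lay below it in all 4. *Col2a1*, the chain of collagen II, had log2 values of 2.86 and −1.33 in PDGFRα reporter+ and 3.32 and 1.23 in PDGFRα reporter- libraries, with a log2 difference of −1.51 (SE 1.57, limma adjusted p = 1.0). It was lower in PDGFRα reporter+ cells within number 2 (−0.46) and within number 3 (−2.55), although PDGFRα reporter+ library 2 lay above PDGFRα reporter- library 3. Without PDGFRα reporter+ library 3 the difference turned to 0.58, and leaving out PDGFRα reporter+ library 2 gave −3.60. Leaving out PDGFRα reporter- library 2 gave −0.46, and a pseudocount of 1 gave −0.83. Without the remaining library, PDGFRα reporter- number 3, the value was −2.55. *Col11a2* had values of −2.35 and −1.56 in PDGFRα reporter+ and −2.45 and −1.81 in PDGFRα reporter- libraries, a log2 difference of 0.18 (SE 0.54, limma adjusted p = 1.0).

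The genes that build, export, trim, cross-link, coat, bind and cut fibrillar collagen were described in 7 lists. With limma and no block, 0 genes of any list passed an adjusted p of 0.05, whereas 5 of the 64 with 4 values were under 0.05 before adjustment, *Lum*, *Dcn*, *Kera*, *Comp* and *Ctsk*, beside 0.909% of all genes. A block on the library number, which no label shows to be a pairing, called 2 of the 64 (*Lum* and *Mmp13*), beside 29 of all 14415 genes. The same block without a variance trend called 0. Hydroxylation of proline and lysine stabilizes the helix and prepares cross-links. Of its 15 genes, 14 had 4 values, with a median log2 difference of 0.12 beside −0.0035 over all genes, and 12 lay above 0. That list median was 0.044 to 0.21 with 1 library left out. Within both numbers 9 of the 14 were higher in PDGFRα reporter+ cells and 0 lower, beside 22.1% and 24.8% of all genes, shares that also stand behind the counts of this kind for the lists that follow. The lysyl hydroxylases *Plod1* (0.45, SE 0.48) and *Plod2* (0.37, SE 0.31) had the largest positive differences at a mean of at least 0, while *Plod3* (−0.01, SE 0.16) and the prolyl 3-hydroxylase *P3h3* (−0.01, SE 0.17) lay at 0.

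Folding and export of procollagen, which need a dedicated chaperone and enlarged transport vesicles, had 9 genes with a median of 0.02 (−0.085 to 0.051 with 1 library left out). *Serpinh1*, the collagen chaperone HSP47, had a log2 difference of −0.04 (SE 0.20), and *Sec24d*, a coat protein of those vesicles, of −0.02 (SE 0.14). *Creb3l1*, a transcription factor of secretory load in bone cells, had 0.40 (SE 0.40), and the folding enzyme *Fkbp14* 0.07 (SE 0.21). The 8 genes that remove the propeptides, so that fibrils can form, had a median of −0.0015 (−0.19 to 0.19 with 1 library left out). At a mean of at least 0, they ran from *Adamts14* (−0.47, SE 0.35) and *Adamts2* (−0.04, SE 0.39) to *Pcolce* (0.08, SE 0.21) and *Adamts3* (0.89, SE 0.41). *Adamts3*, a procollagen N-proteinase, had log2 values of 0.22 and 1.10 in PDGFRα reporter+ and −0.08 and −0.39 in PDGFRα reporter- libraries, without overlap.

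Lysyl oxidases, which start the cross-links between chains, had a median of −0.04 over 5 genes (−0.33 to −0.085 with 1 library left out). *Lox* had a log2 difference of 0.27 (SE 0.50), *Loxl1* of −0.18 (SE 0.34) and *Loxl3* of −0.36 (SE 0.22). Collagen receptors had a median of −0.19 over 8 genes, of which 6 lay below 0, 5 were lower within both numbers and 1 was higher, and without PDGFRα reporter- library 2 that median was −0.0022. *Mrc2*, which takes up cut collagen, had −0.30 (SE 0.14) and did not overlap, *Itga10* had −0.46 (SE 1.27), *Itga1* 0.29 (SE 0.23) and the shared integrin chain *Itgb1* 0.01 (SE 0.18).

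Proteins that sit on the fibril surface and the proteases that cut it held the largest differences of the 7 lists. Of 15 fibril surface genes, 9 lay above 0, 8 were higher within both numbers and 4 lower. Their median was 0.14, and with any 1 library left out it was 0.31 to 0.58. *Lum*, a small proteoglycan that spaces fibrils, had log2 values of 5.96 and 6.04 in PDGFRα reporter+ and 4.61 and 3.73 in PDGFRα reporter- libraries, without overlap (difference 1.83, SE 0.33, limma adjusted p = 1.0). Under a block on the library number its limma adjusted p was 0.0121, and 0.466 without a variance trend. *Dcn*, a proteoglycan of the same kind, had 7.47 and 8.49 in PDGFRα reporter+ and 6.67 and 6.51 in PDGFRα reporter- libraries, also without overlap (1.39, SE 0.39, limma adjusted p = 1.0). On the other side, *Postn* (−1.14, SE 1.45) and *Prelp* (−0.64, SE 1.61) were lower within both numbers but overlapped. *Fn1*, the abundant matrix protein fibronectin, was also lower within both numbers (−0.19 and −0.89) and did not overlap (−0.54, SE 0.46, limma adjusted p = 1.0). The 5 proteases had a median of 0.39, which was 0.06 with a pseudocount of 1 and 0.23 over those with a mean of at least 0. Among them, the collagenase *Mmp13* had values of 5.06 and 6.34 in PDGFRα reporter+ and 3.88 and 5.15 in PDGFRα reporter- libraries. It was higher by 1.19 within each number, and the populations overlapped. Under a block on the library number the limma adjusted p of *Mmp13* was 0.0101, and 0.463 without a variance trend. Without PDGFRα reporter+ library 3 the mean difference of *Mmp13* was 0.55, without PDGFRα reporter- library 2 it was also 0.55, and without either other library 1.83. *Ctsk*, a collagen-cutting protease best known from osteoclasts, had a difference of 0.39 (SE 0.13), and *Mmp14*, a membrane-bound collagenase, of −0.02 (SE 0.19).

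**Figure D5:**
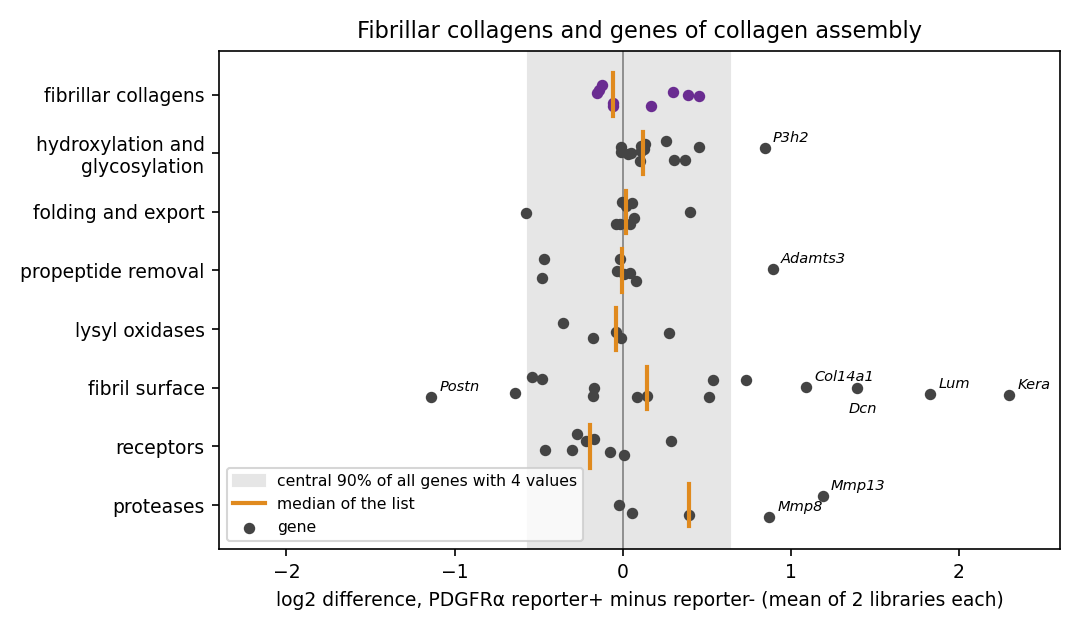
Log2 difference between the populations (x axis, PDGFRα reporter+ minus PDGFRα reporter-, mean of 2 libraries each) for the fibrillar collagens (purple) and for the genes of 7 lists of collagen assembly (dark grey), with list medians in orange and the central 90% of all genes shaded. The fibrillar collagens lie inside the shaded band, from −0.56 to 0.64, whereas 9 of the 64 list genes lie above it and 3 below it.

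Of the markers of other cell types, those of macrophages, endothelium and contractile cells lay mostly to one side between the populations. All 12 macrophage markers had a log2 difference above 0, with a median of 1.00, and 11 were higher in PDGFRα reporter+ cells within both numbers. Their summed linear level was 243 and 286 in PDGFRα reporter+ and 96.4 and 182 in PDGFRα reporter- libraries 2 and 3, although the sort was against CD45, and *Lyz2* made up 79.9% to 83.6% of the sum in each library. *Ptprc*, the gene of CD45, stood at −1.28 and −0.39 in PDGFRα reporter+ and −2.30 and −1.22 in PDGFRα reporter- libraries. Of the 7 endothelial markers with 4 values, 6 were lower in PDGFRα reporter+ cells within both numbers, and the summed level of the 8 listed was 1.64 and 1.39 against 3.13 and 4.07, with *Pecam1* (CD31) between −4.79 and −1.11. The largest part of the sum was *Erg* in both libraries numbered 2 (0.40 in PDGFRα reporter+ and 0.96 in PDGFRα reporter-). It was *Tek* in both numbered 3 (0.05 and 1.10). The 7 contractile cell markers summed to 6.68 and 26.2 against 23.1 and 39.3, with 6 lower within both numbers. With limma and no block, 0 of these markers passed the adjusted threshold, and before adjustment 4 macrophage, 4 endothelial and 2 contractile markers were under 0.05, beside 0.909% of all genes. A block on the library number called *Tyrobp* and *C1qb* (limma adjusted p = 0.0437 each), beside 29 of all 14415 genes, and without a variance trend it called 0. The part of macrophages, endothelium and contractile cells in the values of collagen and protease genes was not tested.

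The labelled cell type itself was in view. All 8 stromal markers had values in every library, among them *Pdgfra* at 7.78 and 7.62 in PDGFRα reporter+ and 7.87 and 7.44 in PDGFRα reporter- libraries (log2 difference 0.05, SE 0.24), with overlap of the populations. Of the 8, 2 were higher in PDGFRα reporter+ cells within both numbers, *Lum* (1.83) and *Dcn* (1.39), beside 22.1% of all genes. Lower within both were 2, *Pdgfrb* (−0.07) and *Prrx1* (−0.17), beside 24.8%. Chondrocyte markers summed to 5.97 and 3.22 in PDGFRα reporter+ and 7.68 and 3.81 in PDGFRα reporter- libraries, lower in both libraries numbered 3 as *Col11a1* was, with *Matn1* and *Cnmd* blank in all 4. The osteoblast markers summed to between 2152 and 3404, nearly all of it *Spp1*. That gene ranked 1st in both libraries numbered 2 and 3rd in both numbered 3. Quantile normalization gives equal ranks nearly equal values, so this sum cannot show a difference between the populations. *Bglap*, which marks mature osteoblasts, was blank in PDGFRα reporter+ library 2 and at most −2.30 elsewhere. Of the 7 with 4 values, 2 were higher in PDGFRα reporter+ cells within both numbers and 1 lower, beside 22.1% and 24.8% of all genes. The higher ones were *Ibsp* (2.51 and 0.18 within numbers 2 and 3, mean 1.35, SE 0.77) and *Alpl* (0.62 and 0.97, mean 0.80, SE 0.44). Neither overlapped, as was true above for 7.59% of all genes, and 0 of the 7 passed the adjusted threshold (limma). *Ibsp* lay below the library median, at −1.02 and −1.45 in PDGFRα reporter+ and −3.53 and −1.64 in PDGFRα reporter- libraries. The lower one was *Phex* (−0.14 and −0.16 within numbers 2 and 3), while *Sp7*, *Runx2* and *Dmp1* had opposite signs in the numbers. The 7 skeletal muscle markers summed to 1.22 and 1.06 against 3.06 and 1.26. Only 3 of them had 4 values. Of these, 2 were lower in PDGFRα reporter+ cells within both numbers (24.8% of all genes) and without overlap (8.1% of all genes). Both were low, *Acta1* at −3.05 and −2.10 against 0.37 and −1.50, and *Myh3* at −5.54 and −6.00 against −0.95 and −3.44. *Tnnt3* had opposite signs in the numbers. Of the 5 erythroid markers 3 were blank throughout and the others were listed in 1 library each.

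No single profile was shared by the main fibril chains. Centred on their own means, *Col1a1*, *Col1a2* and *Col3a1* averaged to a nearly flat profile, from −0.07 in PDGFRα reporter- library 2 to 0.07 in PDGFRα reporter+ library 3, as the lower collagen I and the higher collagen III of number 3 offset each other. Of the genes whose mean was 0 or more, the nearest to it by Euclidean distance over the 4 libraries were *Cops5*, *Ankrd10*, *Csnk2b*, *Tmem258* and *Tceal8*, at distances of 0.014 to 0.017. Between members, the closest profiles were those of *Col1a1* and *Col1a2* (distance 0.28) and of *Col5a2* and *Col24a1* (0.33). *Col5a3* and *Col11a1* were each other's nearest member at 0.52, and *Col27a1* was the farthest from any other, at 0.75 from *Col1a2*.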

How the data were processed

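The authors prepared stranded paired-end libraries of total RNA, sequenced them on an Illumina NextSeq and used Partek Genomics Suite. The submitters' processing notes name Partek 7.0, bcl2fastq 2.17.1.14 and GRCm38.p6, and the aligner, the counting and the linear unit are not given in the sources used here. The deposited log2 values were quantile normalized by the authors, with a blank where a gene had no value. Of 45802 symbols, 16742 had a value and 14415 had 4. Differences were fitted in R 4.3.3 with limma 3.58.1, by lmFit and eBayes with a trend and no block, without a filter on low values, at an adjusted p of 0.05. The model was also run on simulated data, with 200 changed genes and independent noise. It called 88% of changes of 2 log2 units and 9 unchanged genes. The simulation had no difference shared by libraries of one number, as the real libraries have, so these shares do not carry over to them. Depth is unknown. Alternatives were a replicate block, eBayes without a trend, a pseudocount of 1, a mean of at least 0, blanks filled with the lowest value, centring and leaving out each library, and 1 added after seeing the data (the block without a trend). Members, lists and named genes were chosen with earlier results of these data known. Of each list the text names up to 2 genes with the largest difference in each direction at a mean of at least 0, the members, the remaining family chains, *Pdgfra*, list markers and the 5 nearest profiles. *Fn1*, *Kera*, *Comp*, *Ibsp*, *Alpl*, *Phex*, *Sp7*, *Runx2*, *Dmp1*, *Pdgfrb*, *Prrx1*, *Erg*, *Tek*, *Acta1*, *Myh3* and *Tnnt3* were named after their values were seen. Exons came from the transcript with the longest coding sequence of each gene in GENCODE M21, and summaries and plots were made in Python 3.11.15 with pandas 2.3.3, numpy 2.4.6 and matplotlib 3.10.9.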

Additional observations from a re-analysis of the deposited data

Results flagged for a closer look

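In 4 fibrillar collagens the difference between PDGFRα reporter+ and PDGFRα reporter- cells had opposite signs in the libraries numbered 2 and 3. The difference within number 3 minus that within number 2 was 0.34 for *Col5a2*, −0.47 for *Col5a3*, 0.55 for *Col11a1* and −1.05 for *Col27a1*. With 1 library for each number and population, this difference between the numbers was not tested. For all 14415 genes the signs were opposite in 7661, so that 4 of 9 is close to the share over all genes. Groups of 2 libraries are too small for a test of outlying libraries.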

How the results depend on the processing

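Among settings that keep all libraries, only the pseudocount and the centring can move a fitted difference of a member, and 0 of these 18 values turned sign. Centring could hardly move them, because the libraries were already quantile normalized (*Col1a1* from −0.12058 to −0.12088). A pseudocount of 1 lowered the difference of *Col27a1* from 0.45 to 0.28, of *Adamts3* from 0.89 to 0.49 and of *Col11a2* from 0.18 to 0.038, and gave −0.69 in place of −1.14 for *Postn* and −0.19 in place of −0.46 for *Itga10*. The adjusted p of a member lay between 0.876 and 1.0 over the 99 member values under the alternatives. With the heading number as a replicate block, the paired analysis called 29 of all genes and 2 genes of the lists of collagen assembly (*Lum* and *Mmp13*), 0 members among them. Of the macrophage markers it called *Tyrobp* and *C1qb* (adjusted p = 0.0437 each, limma). The block without a variance trend called 0 of all genes, beside 941 genes at an unadjusted p under 0.05, and the block with a trend 913. The smallest p of a member under the block was 0.0849 with a trend (*Col24a1*, adjusted p = 0.924, limma) and 0.0795 without one (*Col3a1*, adjusted p = 0.876, limma). Differences between numbers 3 and 2 had a correlation of 0.681 across 14415 genes between the populations. With only 2 numbers this does not show that libraries were paired.

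Leaving out 1 library also leaves the numbers unequal between the populations, and 7 of 9 members then turned sign. The lowest and highest differences were −0.31 and 0.066 for *Col1a1*, −0.33 and 0.22 for *Col1a2*, −0.17 and 0.95 for *Col3a1*, −0.39 and 0.12 for *Col5a1*, −0.026 and 0.37 for *Col5a2*, −0.77 and 0.66 for *Col5a3*, and −0.91 and 0.60 for *Col11a1*. *Col24a1* (0.02 to 0.58) and *Col27a1* (0.02 to 0.88) kept theirs. *Col2a1* ran from −3.60 to 0.58, *Col11a2* from −0.22 to 0.57 and *Pdgfra* from −0.16 to 0.26. Of the genes of collagen assembly, ranges that crossed 0 were −0.17 to 1.07 for *Plod1*, −0.0002 to 0.75 for *Plod2*, −0.14 to 0.11 for *Plod3*, −0.16 to 0.14 for *P3h3*, −0.085 to 0.89 for *Creb3l1*, −0.10 to 0.24 for *Fkbp14*, −0.16 to 0.082 for *Serpinh1*, −0.094 to 0.063 for *Sec24d*, −0.47 to 0.39 for *Adamts2*, −0.33 to 0.88 for *Lox*, −0.55 to 0.20 for *Loxl1*, −2.72 to 0.45 for *Postn*, −2.46 to 1.18 for *Prelp*, −0.11 to 0.12 for *Itgb1*, −1.98 to 1.05 for *Itga10* and −0.16 to 0.12 for *Mmp14*. Without a change of sign, the ranges were 0.55 to 1.83 for *Mmp13*, 0.88 to 1.90 for *Dcn*, 1.39 to 2.27 for *Lum*, 0.45 to 1.33 for *Adamts3*, −0.82 to −0.11 for *Adamts14*, −0.62 to −0.089 for *Loxl3*, 0.012 to 0.14 for *Pcolce*, 0.081 to 0.49 for *Itga1* and −0.98 to −0.097 for *Fn1*. List medians ran from 0.044 to 0.21 for hydroxylation, −0.085 to 0.051 for folding and export, −0.19 to 0.19 for propeptide removal, −0.33 to −0.085 for lysyl oxidases, 0.31 to 0.58 for the fibril surface, −0.16 to −0.0022 for receptors and 0.35 to 0.55 for proteases. The median over the members was −0.06 with all libraries and 0.02 to 0.15 with 1 left out. With a pseudocount of 1 the median of the proteases was 0.06 in place of 0.39, of the receptors −0.12 in place of −0.19, of the lysyl oxidases −0.01 in place of −0.04, and of propeptide removal 0.0075 in place of −0.0015.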

Other observations

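Because log2 values hide proportions, the members were also set against each other on the linear scale of the deposited values, whose scaling for length is not given. *Col3a1* made up 50.7% and 70.5% of the summed level of the 9 genes in PDGFRα reporter+ libraries 2 and 3, and 40.9% and 65.8% in PDGFRα reporter- libraries 2 and 3. *Col1a1* and *Col1a2* together with *Col3a1* held most of the sum in every library, *Col1a2* between 14.1% and 33.2% and *Col1a1* between 6.96% and 14.3%. *Col24a1* held between 0.182% and 0.205% and was the member whose share varied least in proportion. The log2 of the summed level was 10.83 and 11.29 in PDGFRα reporter+ and 10.66 and 11.09 in PDGFRα reporter- libraries. The sum, like *Col3a1*, was thus higher in number 3 and within each number in PDGFRα reporter+ cells, and it was not tested.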
